A study of Homo sapiens with 120 samples.

Results

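The genes described here carry the names of canonical histone genes, and a few of them are annotated or named as pseudogenes. They were measured by RNA sequencing in human U2OS cells, an osteosarcoma line, under 3 agents that switch on the integrated stress response. They were chosen by name and amount: every gene whose symbol begins with HIST1H, HIST2H, HIST3H or HIST4H, without the symbols that end in PS and digits, and with at least 100 estimated counts summed over the 120 libraries. Of 88 genes with such symbols among 57665 in the deposited table, 13 carried a PS ending and 26 stayed under the minimum, which left 49. HIST1H2AD (94.5 counts), HIST3H3 (81) and HIST1H2BM (78.0) lay just outside the minimum, and HIST2H2BA (105.3), HIST1H2AJ (121.2) and HIST1H2BL (121.4) just inside it. The symbols are those of the deposited table. By gene identifier 44 of the 49 matched a current symbol, for example H2BC12 for HIST1H2BK and H1-2 for HIST1H1C.

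Both lines in the study are U2OS, labelled genotype WT. Parental cells carry no construct, and Dmr-PERK cells stably express the eIF2α kinase domain of mouse PERK joined to DmrB, a domain that its ligand AP20187 (the dimerizer) brings together in pairs. Whether the Dmr-PERK line is 1 clone was not given in the sources used here. Wells of each line were left untreated and collected at 0, 4, 8, 16 and 24 h. Other wells were given 0.2 nM dimerizer, 100 nM thapsigargin (which empties calcium from the endoplasmic reticulum) or 0.05 mM sodium arsenite. These were collected at 2, 4, 8, 16 and 24 h, and each of the 40 groups had 3 wells. The labels do not state that the 3 wells of a group are separate cultures, and p-values therefore refer to differences among wells that could be purely technical.

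Histone proteins H2A, H2B, H3 and H4 form the core around which DNA is wrapped, and the linker histone H1 binds where DNA enters and leaves it. Canonical histone genes lie in clusters of many near-identical copies, are transcribed mainly while DNA is being replicated, and give messages that end in a stem-loop in place of a poly(A) tail. The stem-loop is bound by SLBP, which is needed for processing, translation and the decay of the message when replication stops. A minority of these genes also give polyadenylated messages from a site further downstream, which are made outside S phase and in cells that leave the cycle. The integrated stress response starts when kinases such as PERK phosphorylate eIF2α, which lowers translation overall and raises that of the transcription factor ATF4.

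The sequence that sets canonical histone messages apart was searched for in the annotated transcripts of GENCODE 29 on GRCh38. Of the 47 genes with a matched transcript, 26 held a stem-loop of 16 bases and 21 held none, and over all annotated transcripts the share with such a stem-loop was 0.0547%. The forms below are shown because they show how little the copies differ. Capitals mark the 2 arms of the stem and lower case the loop between them.
stem-loop of 13 genes, HIST1H2AC, HIST2H2BE and HIST1H2BN among them: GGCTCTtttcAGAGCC
stem-loop of 5 H4 genes, HIST4H4, HIST1H4J and HIST1H4H among them: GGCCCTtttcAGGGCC
stem-loop of HIST1H4I, HIST2H4A and HIST2H4B: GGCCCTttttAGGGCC
stem-loop of HIST1H2BC, HIST1H2BD and HIST1H2BF: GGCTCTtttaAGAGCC
HIST1H3E (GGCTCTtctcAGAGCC) and HIST1H2AG (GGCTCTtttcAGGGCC) each had a form of their own. In 19 genes the annotated transcript ran more than 100 bases past the stem-loop, in 7 it ended within that distance. The models of HIST1H2BK and HIST1H1C held no stem-loop. A model without one says only that these letters are not in it.

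The region before the start of transcription is shown for 4 genes that take different courses below: HIST1H2BK and HIST1H1C, which fell with dimerizer and thapsigargin, HIST1H2AC, which fell with arsenite, and HIST1H2BN, which rose with thapsigargin. These are the 250 bases upstream of the start given by RefSeq on GRCh38.p14, on the strand of the gene, and capitals mark the motif matches listed after them.
HIST1H2BK, chr6:27146859-27147108, minus strand: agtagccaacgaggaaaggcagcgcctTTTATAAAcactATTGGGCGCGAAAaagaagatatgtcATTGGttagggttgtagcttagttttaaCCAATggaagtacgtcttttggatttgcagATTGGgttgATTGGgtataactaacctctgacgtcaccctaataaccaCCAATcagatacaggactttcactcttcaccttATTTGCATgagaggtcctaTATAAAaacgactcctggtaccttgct
HIST1H1C, chr6:26056471-26056720, minus strand: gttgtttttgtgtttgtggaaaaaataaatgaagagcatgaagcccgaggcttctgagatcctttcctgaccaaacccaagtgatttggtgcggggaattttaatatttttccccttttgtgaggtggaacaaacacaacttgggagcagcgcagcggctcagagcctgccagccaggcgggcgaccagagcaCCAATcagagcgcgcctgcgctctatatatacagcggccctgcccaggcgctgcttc
HIST1H2AC, chr6:26123922-26124171, plus strand: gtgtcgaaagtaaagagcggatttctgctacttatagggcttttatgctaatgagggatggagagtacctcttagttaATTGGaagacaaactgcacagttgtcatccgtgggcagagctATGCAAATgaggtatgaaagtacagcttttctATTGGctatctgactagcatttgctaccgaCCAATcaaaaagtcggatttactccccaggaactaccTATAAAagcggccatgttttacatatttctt
HIST1H2BN, chr6:27838319-27838568, plus strand: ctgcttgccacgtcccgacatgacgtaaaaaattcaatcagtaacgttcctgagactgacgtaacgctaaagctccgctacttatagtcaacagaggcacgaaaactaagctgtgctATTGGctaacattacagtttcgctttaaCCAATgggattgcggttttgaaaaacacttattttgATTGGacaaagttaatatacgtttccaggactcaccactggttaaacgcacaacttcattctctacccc

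Motifs were read on both strands in windows of 250 bases before to 50 after the start, which the table held for 42 of the 49 genes and for 35116 genes in all. The octamer ATTTGCAT, a site of OCT factors that is known from H2B genes, was in 17 of the 42 windows (40.5%, against 1.77% of all windows), 9 of them H2B and 7 H2A genes. CCAAT was in 34 (81%, against 34.6%) and TATAAA in 31 (73.8%, against 11.5%). The E2F-type letters TTTCGCGC or TTTGGCGC were in 9 (21.4%, against 1.15%). The letters TTGCATCA, a form of the element that ATF4 binds with C/EBP partners, were in 0.866% of all windows and in no window of the 42. CCAAT can overlap the E2F letters and the octamer can overlap the last motif. A match is a description of letters and not a bound site, and no match says only that these letters are not in the window.

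Positions were taken from GENCODE 29 for 47 of the 49 genes. Of these, 34 lay on chromosome 6 between 26017085 and 27893843, 12 on chromosome 1 between 121108210 and 228460470, and HIST4H4 on chromosome 12 (14767999 to 14771131). The annotation calls 45 of them protein coding and the pair HIST2H2BB and HIST2H2BA transcribed pseudogenes. HIST2H2BC and HIST2H2BD were not matched, and their RefSeq symbols, H2BC20P and H2BC19P, are those of pseudogenes. Many of the genes share sequence: 14 had more than 50% of their 31-base words in common with another gene, and 28 had under 20%. HIST2H2AA3 and HIST2H2AA4 are near-identical, as are HIST2H4A and HIST2H4B, so the split of reads within a pair is uncertain and changes are given for the sum of each pair, also tested as 1 gene, and the levels of HIST1H2BK (74.4% shared with H2BFS), HIST2H3C (100% shared with HIST2H3A) and HIST1H4J (82.2% shared with HIST1H4K) are uncertain in the same way.

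Levels between genes are compared in TPM (transcripts scaled to a common total), which divides by transcript length. H2B genes held 45.7% of the summed mean TPM of the 49 genes, H4 genes 20.0%, H2A genes 19.8%, H1 genes 12.5% and H3 genes 1.96%. HIST1H2BK, an H2B gene, was the highest at a mean of 74.4 TPM, followed by HIST1H1C, which encodes linker histone H1.2, at 36.8 and by HIST2H2AA4, an H2A gene, at 33.1. Together these 3 held 47.6% of the total and the highest 10 held 80.2%. In H4 the leaders were HIST2H4A (17.5 TPM), HIST1H4J (15.5) and HIST1H4I (8.25), and in H3 they were HIST2H3C (2.36), HIST1H3B (1.36) and HIST1H3A (1.04). A mean of at least 1 TPM was reached by 22 genes, and 27 lay under it. Genes listed as having known polyadenylated forms, of which 13 were among the 49, held 57.7% of the summed level. Whether the libraries were made from polyadenylated RNA was not given in the sources used here, and that choice would set which of these messages could be counted.

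**Figure D1:**
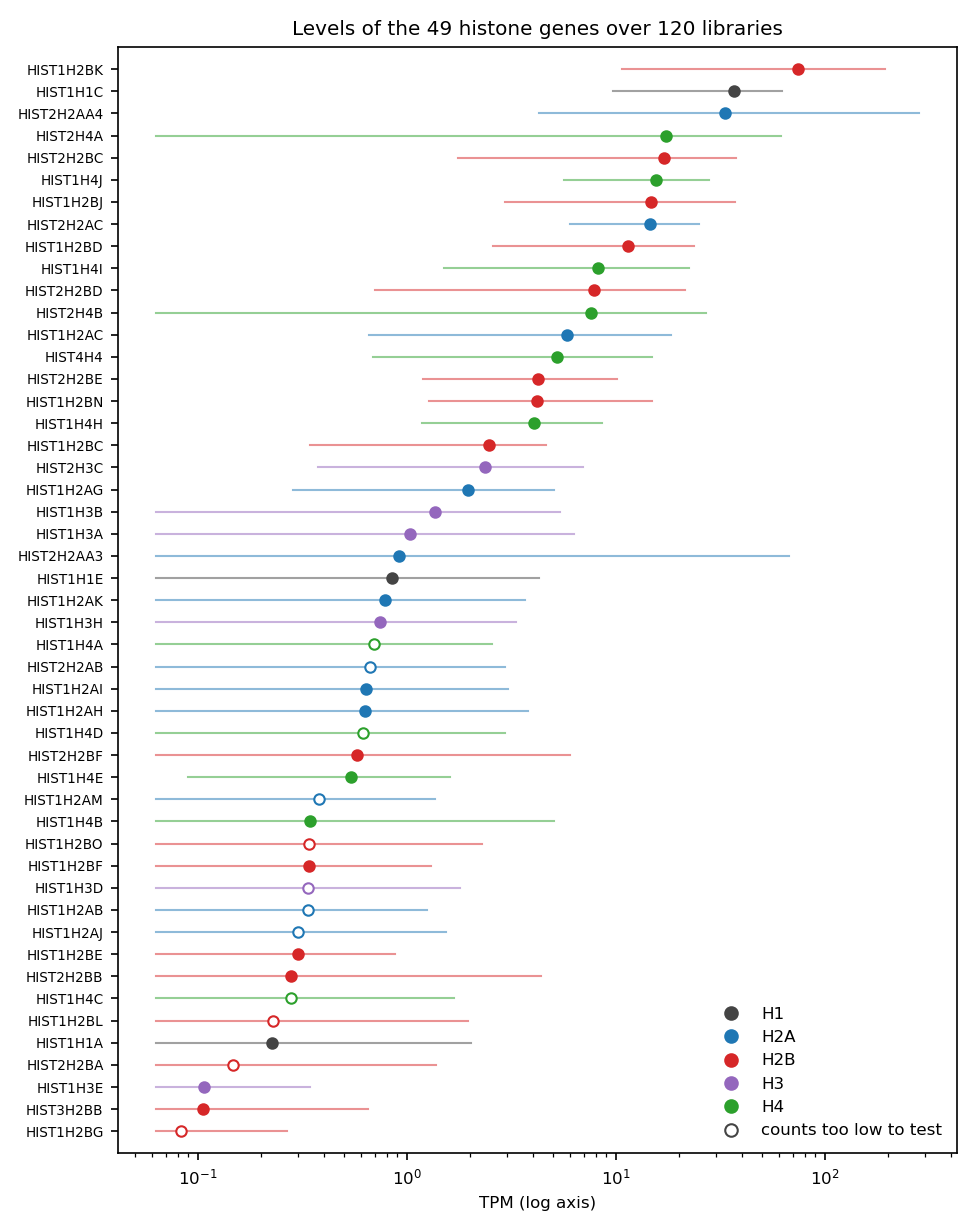
Mean TPM (log axis) of each of the 49 histone genes over all 120 libraries (points) with the lowest and highest library (lines), coloured by family. Open points mark the 12 genes with counts too low to test. The highest gene is HIST1H2BK at 74.4 TPM, and 27 genes lie under 1 TPM.

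Library totals ran from 1.29e+07 to 5.65e+07 estimated counts with a median of 2.23e+07, and the 49 genes took 44.9 to 236.9 CPM of a library. Replicates had correlations of at least 0.987 across genes, and the third arsenite library of Parental cells at 24 h stood apart from its group. For that group HIST1H1C and the pair HIST2H4A and HIST2H4B are also given without it. The other values of that group include it. ATF4, DDIT3, ASNS and TRIB3, all targets or parts of the stress response, were called higher with each agent in each line, except with dimerizer in Parental cells, where edgeR called none of them. EIF2AK3, the gene of PERK, which shares sequence with the construct, was called higher in untreated Dmr-PERK cells. Markers of U2OS (VIM, SPARC, COL1A1, CD44, RUNX2 and COL1A2, the last at most 3.67 TPM) summed to 4213 to 5153 TPM in untreated libraries and to 1996 to 2520 with arsenite at 24 h. Epithelial markers summed to 8.83 to 22.3 and 15.7 to 20.5. Blood cell markers summed to 0.744 to 2.91 and 7.0 to 26.1, of which ITGAM reached 22.5 while CD3E and HBB stayed under 1 TPM in every library.

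Expression tests used the estimated counts with TMM factors in 37 of the 49 genes, and the other 12 were too low. Levels of a gene in the wells are given in CPM (counts scaled to the library total, with TMM factors). A gene passed the filter when enough libraries reached 0.448 CPM. HIST1H1A, HIST2H2AA3, HIST1H2AH, HIST2H2BF, HIST2H2BB, HIST1H3A and HIST1H4B reached it in arsenite libraries only, and HIST1H2AK, HIST1H2AI, HIST2H2BB and HIST1H3H in Parental libraries only, so these had to differ between groups to be tested at all. Values after ± are approximate standard errors of a log2 difference.

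Untreated cells of both lines were compared first, as the mean over 5 times. Of the 37 histone genes 21 were lower in Dmr-PERK cells and 16 were not called, with a median log2 difference of -0.36. The 37 include HIST1H2AK, HIST1H2AI, HIST2H2BB and HIST1H3H, which reached the filter in Parental libraries only. Those genes had to be high in Parental libraries to be tested, so the count of lower genes depends on the filter. Over all 26998 genes 62.5% were called in either direction and 32.2% were lower, with a median of -0.03. HIST1H2BK lay at 3.62 to 7.38 (median 5.25) CPM in the 15 untreated Dmr-PERK libraries and at 16.2 to 22.6 (median 18.4) in the 15 Parental ones. The lines did not overlap, and the log2 difference was -1.81 ± 0.05 (edgeR adjusted p = 6.97e-55). HIST1H1C differed less, at -0.51 ± 0.03, and HIST1H2BD, an H2B gene, was not called (-0.03 ± 0.06, adjusted p = 0.725). In bulk samples, fewer cells with a message and less of it per cell cannot be told apart.

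Some of the genes with large line differences lay next to each other on chromosome 6. HIST1H2BJ, HIST1H2AG, HIST1H4I, HIST1H2BK and HIST1H2AH fill 27125897 to 27147515, a stretch of 21619 bases. HIST1H2BJ was lower in Dmr-PERK cells at -1.76 ± 0.08, HIST1H4I at -1.73 ± 0.05 and HIST1H2AG, named after its values were seen, at -0.97 ± 0.07, while the scarce HIST1H2AH was not called (-0.62 ± 0.40). A second stretch was nearly silent in Dmr-PERK cells. HIST1H3H, an H3 gene, lay at 0.915 to 2.33 (median 1.2) CPM in untreated Parental libraries and at 0 to 0.0542 (median 0) in Dmr-PERK ones, a fitted log2 difference of -7.14 ± 0.30, which depends on the prior count because most Dmr-PERK libraries were at 0. HIST1H2AI differed by -5.04 ± 0.54. HIST1H3H and HIST1H2AI reached the filter in Parental libraries only, so they had to be high in those to be tested.

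HIST1H3H and HIST1H2AI are neighbours, and the stretch around them was examined after their values were seen. From HIST1H4PS1 to HIST1H2BM, 27807075 to 27815424 on chromosome 6, the table holds 6 genes, all of them histone genes and 4 of them among the 49. Summed over all 60 libraries of a line Dmr-PERK cells had 25.1 estimated counts of them and Parental cells 2440. HIST1H3H had 4 counts against 1668, HIST1H2AI 7 against 428.9, HIST1H2AJ 4 against 117.2 and HIST1H2BL 5.07 against 116.3. The 2 outside the minimum followed, with 2 against 35 for HIST1H4PS1 and 3 against 75.0 for HIST1H2BM. The next genes on either side were not low in Dmr-PERK cells to this degree: HIST1H4J had 2591 counts there and 3832 in Parental cells, and RSL24D1P1 had 30.2 and 12.1. These sums are given with no test.

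With time in culture, histone messages of untreated cells went up. At 24 h against 0 h, 17 of the 37 genes were higher in Dmr-PERK cells and 20 were not called (31.1% of all genes called, 14.4% higher), and 14 were higher and 2 lower in Parental cells (33.2% called, 16.4% higher). Summed over the 49 genes, untreated Dmr-PERK cells went from 229 ± 6.54 TPM at 0 h to 323 ± 11.4 at 24 h, and Parental cells from 396 ± 11.7 to 509 ± 12.6 (SD, n = 3 each). HIST2H3C, an H3 gene, was at 1.65, 1.06 and 1.35 CPM in the Dmr-PERK wells at 0 h and at 4.09, 4.93 and 5.31 at 24 h. Its log2 change was 1.79 ± 0.19 there and 0.68 ± 0.18 in Parental cells (edgeR adjusted p = 3.24e-13 and 0.00102). HIST2H2BC, whose RefSeq symbol H2BC20P is that of an H2B pseudogene, rose by 1.03 ± 0.13 and 0.78 ± 0.12. HIST2H2AA4 rose by 0.76 ± 0.14 and 0.65 ± 0.14. HIST1H2BK (0.14 and 0.17) and HIST1H1C (-0.10 and -0.03) were not called in either line. HIST2H2BE (-0.26 ± 0.10) and the scarce HIST3H2BB (-2.21 ± 0.73), both H2B genes, were the 2 lower in Parental cells. Treated wells of 4 to 24 h were therefore set against untreated wells of their own time.

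**Figure D2:**
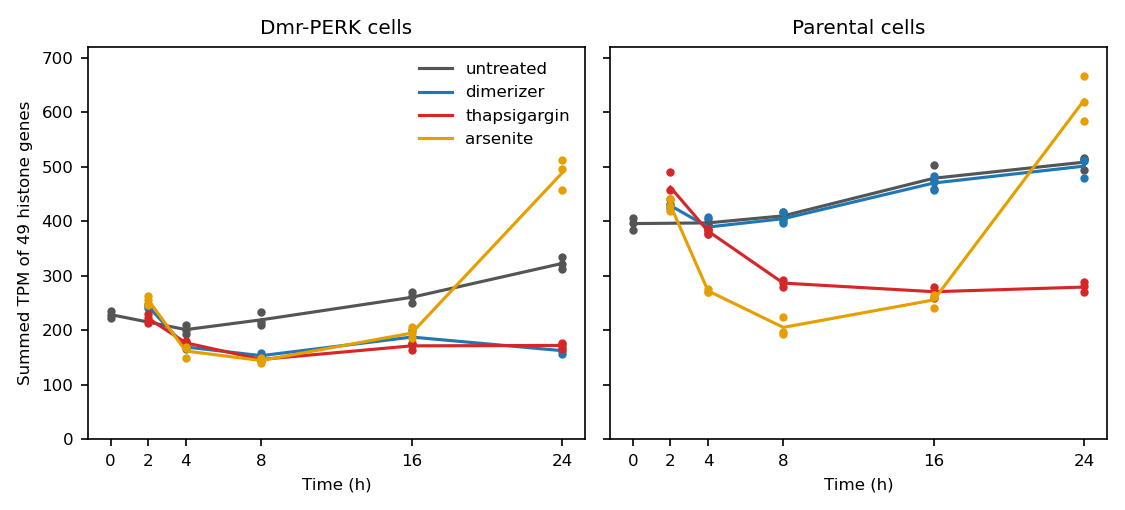
Summed TPM of the 49 histone genes against time (h) for both lines, with points for the libraries and lines through the group means. Untreated cells end at 323 (Dmr-PERK) and 509 TPM (Parental), dimerizer and thapsigargin lie below them at 24 h in Dmr-PERK cells, and arsenite lies above at 24 h in both lines.

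Dimerizer acts through the construct, and in Dmr-PERK cells the question was what activation of the PERK kinase domain alone does to the transcriptome. The summed histone level was 1.07 times that of untreated 0 h wells at 2 h, then 0.84 times the untreated wells of the same time at 4 h, 0.70 at 8 h, 0.72 at 16 h and 0.50 at 24 h. From 4 h on all treated libraries lay below the untreated ones of their time. At 24 h that was 162 ± 6.34 against 323 ± 11.4 TPM (SD, n = 3 each). Averaged over 4 to 24 h, 19 of the 37 genes fell and 2 rose, with a median log2 fold change of -0.55, beside 55.2% of all genes called (27.7% lower) and a median of -0.03. At 24 h 22 fell and 15 were not called, with a median of -1.2, beside 48.1% of all genes called.

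The linker gene HIST1H1C was at 5.43, 5.59 and 7.02 CPM with dimerizer at 24 h and at 12.2, 12.4 and 11.7 in untreated Dmr-PERK wells. All 3 treated wells lay below the untreated ones, and the log2 fold change was -1.03 ± 0.10 (edgeR adjusted p = 1.21e-16). HIST1H1C was the one H1 gene of the 3 tested that was called in the average over time (-0.80 ± 0.05), beside 55.2% of all genes.

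Among H2B genes 9 of 13 fell in the average and the other 4 were not called (median -0.82), beside 27.7% of all genes lower. HIST1H2BD, which also gives a spliced message, was at 2.38, 2.19 and 2.07 CPM with dimerizer at 24 h against 7.47, 7.54 and 7.90 untreated, with a log2 fold change of -1.44 ± 0.08 in the average over time. HIST1H2BK was at 2.06, 1.85 and 2.68 CPM at 24 h against 5.56, 5.77 and 5.36, with -1.14 ± 0.09 in the average. HIST2H2BE lay at 1.75 to 3.39 (median 2.50) CPM with dimerizer and at 3.83 to 6.48 (median 4.94) untreated over 4 to 24 h, with -0.97 ± 0.08. Treated and untreated libraries of 4 to 24 h did not overlap for any of these 3 genes. HIST1H2BN, another H2B gene, was not called (0.16 ± 0.10, adjusted p = 0.160).

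In this average 55.2% of all genes were called, and 27.7% of all genes were lower. In H2A 5 of 8 genes fell, with HIST2H2AA4 at -0.55 ± 0.08, HIST2H2AC at -0.49 ± 0.10 and HIST1H2AC at -0.53 ± 0.07. In H3, the scarce HIST1H3A (-1.44 ± 0.39) and HIST2H3C (-0.31 ± 0.12) fell and the other 3 tested were not called. HIST1H3A reached the 0.448 CPM of the filter in arsenite libraries only, so its fall with dimerizer compares values under that level. Of 8 tested H4 genes 2 were higher (HIST2H4A, which summed with HIST2H4B was at 0.25 ± 0.08, and HIST1H4J at 0.25 ± 0.11). Another 2 were lower, among them HIST1H4I at -0.93 ± 0.08. The near-identical pair HIST2H4A and HIST2H4B, summed, was at 12.8, 12.7 and 11.5 CPM at 2 h against 6.94, 7.75 and 7.48 at 0 h. It was 2.02 times the untreated level at 4 h, 1.17 times at 8 and 16 h and 0.69 times at 24 h.

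At 2 h, set against untreated wells at 0 h since no untreated wells of 2 h are among the samples, 4 histone genes were higher and 2 lower with dimerizer (17.7% of all genes called). Leaving out all wells of replicate 1 or of replicate 2 left 1 of these 6 calls. HIST2H3C was higher by 0.87 ± 0.23, HIST1H2BN by 0.64 ± 0.23, HIST1H4H by 0.52 ± 0.16 and HIST1H2AC by 0.35 ± 0.13. HIST2H2AC (-0.57 ± 0.20) and HIST1H2BD (-0.38 ± 0.14) were lower. Over 4 to 24 h the effect of dimerizer changed with time in 11 of the 37 genes, beside 42.1% of all genes, and in 4 to 6 when 1 replicate number was left out.

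Parental cells given dimerizer served as the control for the ligand itself. Summed histone levels were 1.08 times those of untreated 0 h wells at 2 h and 0.98 to 0.99 times those of untreated wells from 4 to 24 h, with overlapping libraries at each of the later times. In the average over time edgeR called 0 of the 37 genes, beside 0.582% of all genes, with 2 genes at an unadjusted p under 0.05 and 0 by DESeq2. HIST1H1C was at 17.3, 17.3 and 16.6 CPM at 24 h against 17.9, 17.1 and 16.5. The difference between the lines in the effect of dimerizer passed in 17 of 37 genes, 16 of them more negative in Dmr-PERK cells (47% of all genes called), and was -1.42 ± 0.10 for HIST1H2BD, -1.15 ± 0.10 for HIST1H2BK and -0.77 ± 0.06 for HIST1H1C.

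**Figure D3:**
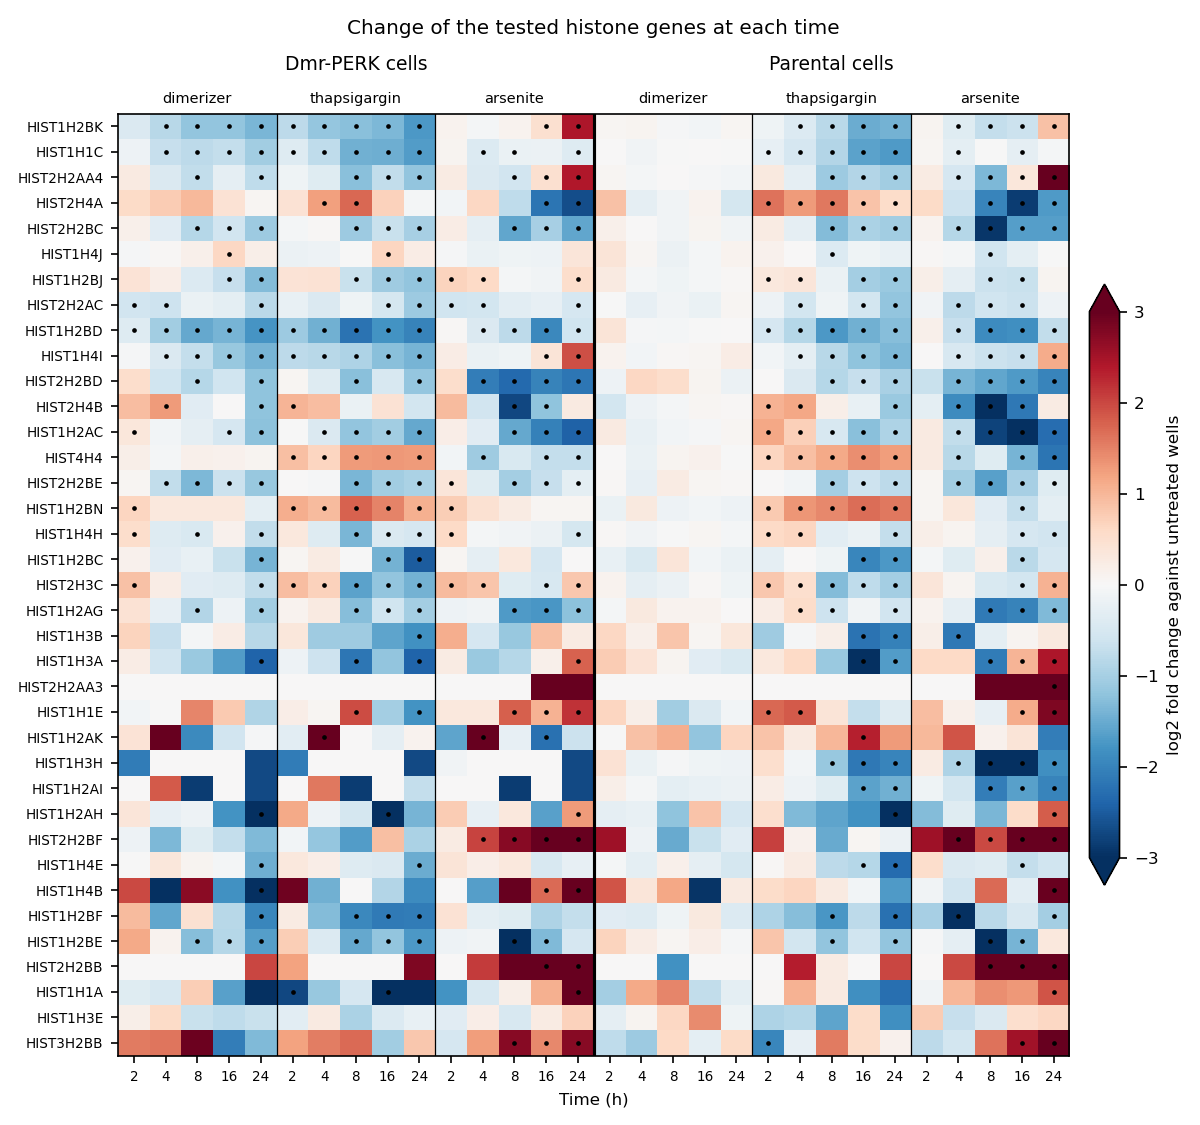
Log2 fold change against untreated wells (colour, cut at 3 in either direction) of the 37 tested histone genes by time (h), treatment and line, with the 2 h wells set against untreated 0 h. Dots mark an edgeR adjusted p under 0.05. Falls spread from 4 to 24 h with dimerizer in Dmr-PERK cells and with thapsigargin in both lines, HIST1H2BN and HIST4H4 rise with thapsigargin, and arsenite at 24 h shows changes of both signs. HIST2H4A and HIST2H4B are drawn as separate genes although the split of their reads is uncertain.

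Thapsigargin went with lower levels of most tested histone genes in both lines and higher levels of a few. Over 4 to 24 h, 22 of the 37 genes fell and 3 rose in Dmr-PERK cells (median -0.68, beside 63% of all genes called, 32.2% lower and a median of 0), and 24 fell and 4 rose in Parental cells (median -0.64, beside 65.1% called and a median of -0.06). The 37 include HIST1H2AK, which reached the filter in Parental thapsigargin libraries only. That gene had to be high there to be tested, so the count of genes that rose in Parental cells depends on the filter. At 24 h the counts were 21 lower and 2 higher in Dmr-PERK cells (55% of all genes called) and 24 lower and 3 higher in Parental cells (54.6%). The summed level at 24 h was 172 ± 6.0 TPM in Dmr-PERK cells, 0.53 times the untreated level, and 279 ± 9.36 in Parental cells, 0.55 times (SD, n = 3 each).

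HIST1H1C was at 3.4, 4.23 and 3.77 CPM with thapsigargin at 24 h in Dmr-PERK cells against 12.2, 12.4 and 11.7 untreated, and at 4.88, 5.35 and 5.53 in Parental cells against 17.9, 17.1 and 16.5. No treated library overlapped an untreated one at that time, and the log2 fold changes were -1.67 ± 0.11 and -1.71 ± 0.09 (edgeR adjusted p = 1.23e-26 and 5.56e-32). In the average over time they were -1.34 ± 0.05 and -1.18 ± 0.04.

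H2B genes gave falls and a rise. HIST1H2BD lay at 0.878 to 2.46 (median 1.67) CPM in treated and 4.21 to 7.90 (median 5.72) in untreated Dmr-PERK libraries of 4 to 24 h, and at 1.25 to 3.48 (median 2.64) and 4.47 to 7.98 (median 6.0) in Parental ones. Its log2 fold changes were -1.87 ± 0.08 and -1.32 ± 0.07, and those of HIST1H2BK were -1.37 ± 0.09 and -1.03 ± 0.05. HIST1H2BC, which lies next to HIST1H2AC, was named after its values were seen: it was at a mean of 0.225 CPM at 24 h against 1.25 in Dmr-PERK cells, a log2 fold change of -2.50 ± 0.36, and at -1.73 ± 0.36 in Parental cells.

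HIST1H2BN went the other way. In Dmr-PERK cells it was at 7.80, 6.11 and 7.71 CPM with thapsigargin at 8 h and at 2.2, 2.06 and 2.13 untreated. In Parental cells it was at 8.68, 9.37 and 9.26 at 24 h and at 2.79, 3.56 and 2.85 untreated. Treated wells lay above the untreated ones in each of these comparisons, and the log2 fold changes over 4 to 24 h were 1.32 ± 0.08 and 1.5 ± 0.07 (edgeR adjusted p = 2.55e-28 and 2.92e-38). The annotated transcripts of HIST1H2BN run from 432 to 4137 bases, and its span holds HIST1H2AK on the other strand. Use of the strand in counting was not given in the sources used here, although the library kit is a directional one.

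HIST4H4, the one H4 gene on chromosome 12, rose as well. It was at 2.41, 3.79 and 3.06 CPM at 24 h with thapsigargin against 1.29, 1.33 and 1.19 in Dmr-PERK cells, and at 4.69, 4.77 and 3.98 against 1.69, 1.91 and 2.14 in Parental cells. The log2 fold changes over 4 to 24 h were 1.12 ± 0.10 and 1.17 ± 0.08. The pair HIST2H4A and HIST2H4B, summed, was highest early, at 47.8, 38.2 and 37.0 CPM at 2 h in Parental cells against 17.35, 18.15 and 15.98 at 0 h. That is 2.39 times as much, followed by 2.31 times the untreated level at 4 h, 1.76 at 8 h, 1.24 at 16 h and 0.89 at 24 h. In Dmr-PERK cells the ratio was 1.64 at 2 h, 2.18 at 4 h, 1.69 at 8 h and 1.48 at 16 h. At 24 h treated wells lay below untreated ones in both lines. The log2 value of the pair was then -0.32 ± 0.13 in Dmr-PERK cells (edgeR adjusted p = 0.0293). In Parental cells it was -0.17 ± 0.11 and not called (edgeR adjusted p = 0.194).

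Some genes of the clusters were high at 2 h and low at 24 h. HIST1H2AC, an H2A gene, was at 17.4, 16.6 and 14.3 CPM with thapsigargin at 2 h in Parental cells against 7.89, 5.24 and 8.18 at 0 h, a log2 fold change of 1.17 ± 0.10. At 24 h it was at 5.52, 6.06 and 5.37 against 10.9, 11.0 and 9.95 (-0.91 ± 0.11). In Dmr-PERK cells the 2 h wells (6.16, 5.74 and 5.16 CPM) overlapped those at 0 h (6.33, 4.73 and 6.12), and the log2 value was -0.00 ± 0.12. HIST2H3C was higher at 2 h by 0.93 ± 0.20 in Dmr-PERK and 0.80 ± 0.19 in Parental cells and stood at -1.43 ± 0.18 and -1.03 ± 0.18 at 24 h. At 2 h 9 genes were higher and 3 lower in Parental cells (29.2% of all genes called), and Dmr-PERK cells had 4 higher and 5 lower (33.2%). The effect of thapsigargin changed over 4 to 24 h in 15 genes of Dmr-PERK cells (52.2% of all genes) and in 20 of Parental cells (49.9%).

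**Figure D4:**
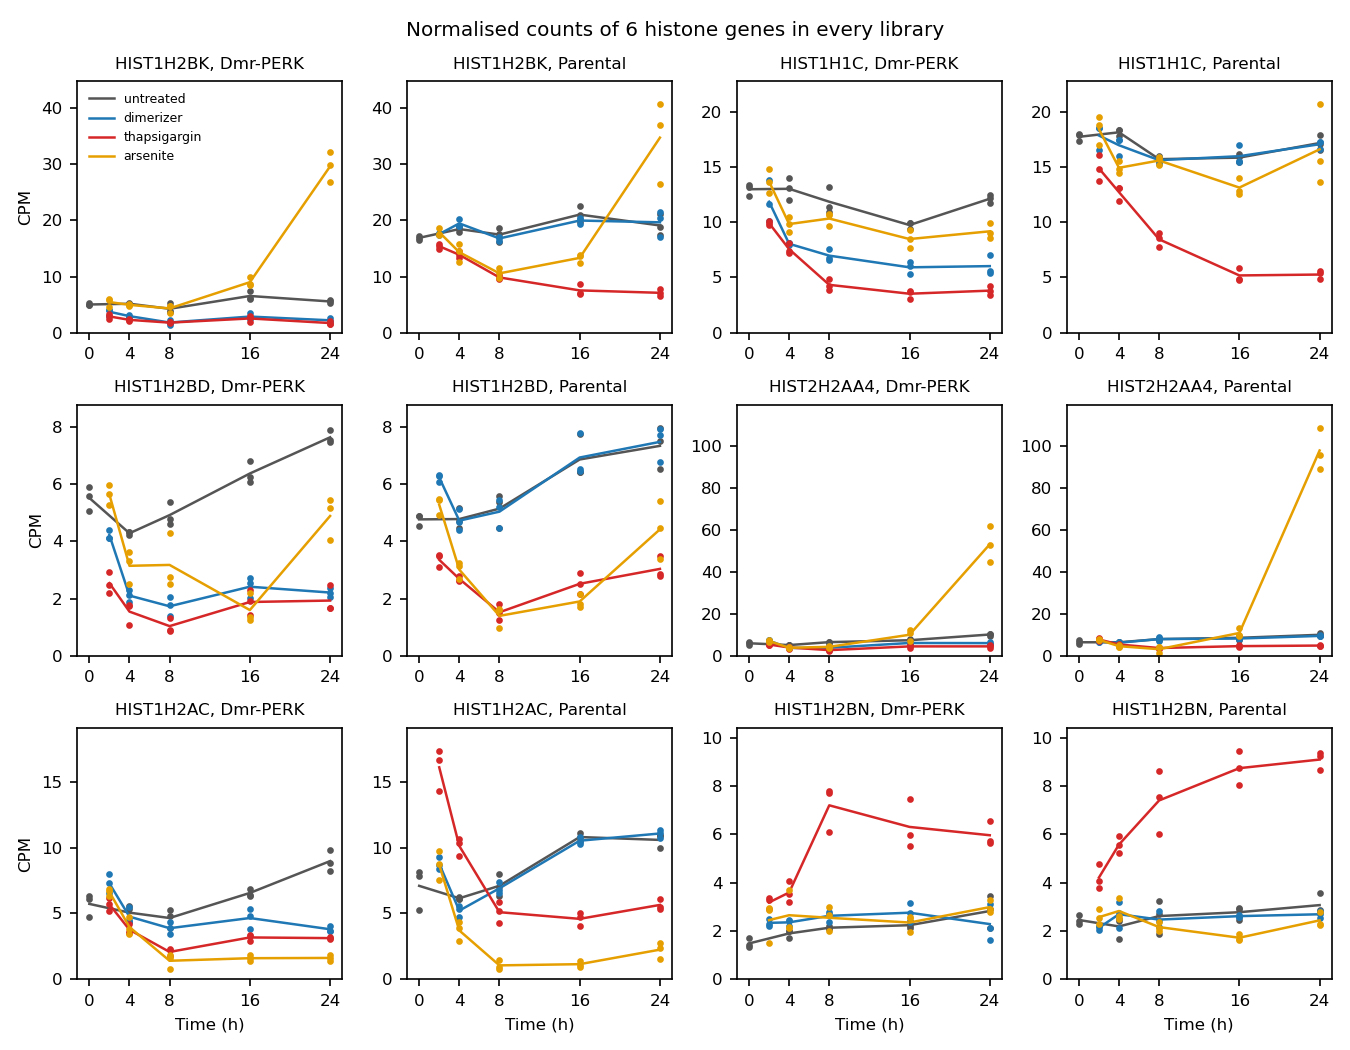
CPM of 6 histone genes against time (h) in every library (points, lines through group means) for Dmr-PERK and Parental cells. HIST1H2BN rises with thapsigargin, HIST1H2BK and HIST2H2AA4 rise with arsenite at 24 h, and HIST1H2AC falls with arsenite and has a thapsigargin peak at 2 h in Parental cells.

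With arsenite the summed histone level fell and then rose. It was 0.66 times the untreated level at 8 h in Dmr-PERK cells and 0.50 times in Parental cells. At 24 h it was 1.52 times in Dmr-PERK cells (489 ± 28.5 against 323 ± 11.4 TPM) and 1.23 times in Parental cells (623 ± 41.3 against 509 ± 12.6; SD, n = 3 each), and treated libraries lay above untreated ones in both. In the same wells the mitochondrial share of counts was 3.89 to 3.98% in Dmr-PERK cells, against 6.1 to 6.31% untreated, and 4.14 to 6.61% in Parental cells, against 5.71 to 5.79%. The number of genes detected was 36413 to 40389 against 32005 to 33081 in Dmr-PERK cells and 35592 to 36606 against 32364 to 35052 in Parental cells, and the part of these measures in the result was not tested. Of 37 genes 10 were higher and 13 lower over 4 to 24 h in Dmr-PERK cells (83.6% of all genes called), and 6 higher and 23 lower in Parental cells (82.1%). At 24 h Dmr-PERK cells had 13 higher and 11 lower (81.5%), and Parental cells 13 higher and 12 lower (80.5%). The 37 include the 7 genes that reached the filter in arsenite libraries only. Those genes had to be high there to be tested, so the counts of higher genes depend on the filter. All of these counts also depend on the scaling. The median over all genes at 24 h was 0.11 in Dmr-PERK and 0.12 in Parental cells with edgeR, 0.34 and 0.35 with DESeq2, and -0.12 and -0.25 with limma on log2(TPM + 1), which put 43.6% and 37.3% of its calls higher, beside 53.1% and 53% with edgeR. Of the histone genes DESeq2 called 13 higher and 6 lower in Dmr-PERK cells and 13 and 9 in Parental cells, and limma 12 and 13 and then 10 and 17. The effect changed over 4 to 24 h in 18 and 23 genes (71.2% and 73.1% of all genes).

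The higher sums at 24 h came from few genes. In Dmr-PERK cells HIST1H2BK had a mean of 165.9 TPM against 41.1 untreated and the pair HIST2H2AA3 and HIST2H2AA4 159.6 against 40.2, while all the other members together had 163.6 against 241.4. In Parental cells the pair had 273.7 against 40.3 and HIST1H2BK 165 against 142.8, with 184.4 against 325.5 for all the others.

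On the CPM scale HIST1H2BK was at 29.9, 26.8 and 32.3 CPM in Dmr-PERK cells against 5.56, 5.77 and 5.36 untreated, and at 37.0, 40.7 and 26.6 in Parental cells against 18.8, 21.1 and 17.5. Treated libraries lay above untreated ones in both lines, and the log2 fold changes were 2.43 ± 0.10 and 0.88 ± 0.08 (edgeR adjusted p = 3.15e-40 and 1.08e-17). In TPM, limma gave 1.99 for Dmr-PERK cells and 0.18 for Parental cells, where the gene was then not called (adjusted p = 0.213 on log2(TPM + 1)). At 8 h the edgeR values had been 0.10 ± 0.15, not called, and -0.71 ± 0.10.

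The H2A pair HIST2H2AA3 and HIST2H2AA4, summed, was at 0.66 and 0.53 times the untreated level at 8 h in Dmr-PERK and Parental cells and at 1.48 and 1.39 times at 16 h. At 24 h it was at 5.25 times (53.4 against 10.2 CPM) and 10.7 times (106.9 against 10.0). Blood cell markers, led by ITGAM, were also higher in these arsenite libraries (7.0 to 26.1 TPM summed, against 0.744 to 2.91 untreated), while CD3E and HBB were under 1 TPM in all of them, and their part in the result was not tested. HIST1H4I was at 1.94 ± 0.10 and 1.12 ± 0.07 at 24 h, and HIST2H3C at 0.82 ± 0.13 and 1.05 ± 0.14, or 0.33 and 0.30 with limma on log2(TPM + 1), the second not called (adjusted p = 0.0532). Among the scarcer genes HIST1H1E, which encodes a linker histone, went from 0.367 to 1.55 CPM in Dmr-PERK cells (2.16 ± 0.31) and from 0.285 to 2.02 in Parental cells (2.80 ± 0.31). HIST1H3A, which reached the filter in arsenite libraries only and so had to be high there, was at 1.77 ± 0.45 and 2.42 ± 0.38.

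HIST2H2BF, a scarce H2B gene, was at 0.181, 0.343 and 0.178 CPM untreated at 24 h in Dmr-PERK cells and at 2.89, 2.98 and 3.18 with arsenite. In Parental cells it was at 0.197, 0.166 and 0.131 untreated and at 5.55, 3.96 and 1.52 with arsenite, the lowest of these being the third library. The log2 fold changes over 4 to 24 h were 3.11 ± 0.24 and 3.82 ± 0.22. It is one of the 7 genes that reached the filter in arsenite libraries only.

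HIST1H2AC was lower with arsenite in both lines. It was at 1.41, 1.60 and 1.82 CPM at 24 h against 8.26, 9.82 and 8.88 in Dmr-PERK cells, and at 2.40, 1.55 and 2.78 against 10.9, 11.0 and 9.95 in Parental cells. The log2 fold changes were -2.43 ± 0.16 and -2.27 ± 0.15, after -2.02 ± 0.16 and -3.24 ± 0.16 at 16 h. HIST2H2BD, whose current symbol H2BC19P is that of a pseudogene, was at -2.14 ± 0.19 and -1.66 ± 0.16 over 4 to 24 h. HIST2H2BC was at -1.57 ± 0.14 and -1.66 ± 0.15 at 24 h, and HIST1H2BD at -1.94 ± 0.15 and -1.83 ± 0.14 at 16 h. HIST4H4, which rose with thapsigargin, was at -0.72 ± 0.28 and -2.19 ± 0.32 at 24 h. HIST1H1C was at -0.38 ± 0.09 in Dmr-PERK cells, or -0.16 and not called with DESeq2 (adjusted p = 0.103), and at -0.06 ± 0.08 in Parental cells, where it was not called (adjusted p = 0.451). The Parental value was -0.25 and called without the third library, 0.17 and called with DESeq2, and -0.70 and called with limma on log2(TPM + 1), so its direction there changes with the scaling. The pair HIST2H4A and HIST2H4B, summed, was at 0.33 times the untreated level at 8 h in Dmr-PERK cells and 0.17 times in Parental cells. At 24 h the third Parental library (35.3 CPM) lay above the other 2 (13.1 and 14.0), and the summed pair was at 0.82 times the untreated level with overlapping libraries (log2 value -0.31 ± 0.12, edgeR adjusted p = 0.0127), or 0.54 times without the third library, and at 0.74 times in Dmr-PERK cells (-0.41 ± 0.13), where treated wells lay below untreated ones.

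Genes were also grouped by whether the annotated transcripts hold a stem-loop. Of the 11 tested genes without one, 7 were higher and 2 lower with arsenite at 24 h in Dmr-PERK cells, and 6 were higher in Parental cells and the other 5 not called. Of the 18 tested genes whose transcripts run over 100 bases past a stem-loop, Dmr-PERK cells had 4 higher and 6 lower, and Parental cells 4 higher and 8 lower. Of all genes 81.5% were called in Dmr-PERK and 80.5% in Parental cells. HIST1H1A, HIST1H2AH, HIST2H2BB and HIST1H3A, 4 of the 11, reached the filter in arsenite libraries only and so had to be high there. The same holds for 1 of the 18 and 2 of the 6. Of the other 7 genes without a stem-loop, Dmr-PERK cells had 3 higher and 2 lower and Parental cells 2 higher, and of the other 17, 3 were higher in each line and 6 and 8 lower. Of the other 4 with a shorter run, 1 was higher in each line and 1 and 2 were lower. The groups describe annotated models, which may not be the full messages, and the difference between them was not tested.

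Of the 13 genes listed with polyadenylated forms, 10 fell and 1 rose over 4 to 24 h with dimerizer in Dmr-PERK cells (median -0.68, beside 55.2% of all genes called). With thapsigargin 10 fell and 1 rose in each line (medians -0.84 and -0.63, beside 63% and 65.1% of all genes). With arsenite 8 fell and 3 rose in Dmr-PERK cells (median -0.60, beside 83.6%), and 12 fell and 1 rose in Parental cells (median -1.0, beside 82.1%).

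At 2 h few of these genes were called with arsenite. In Dmr-PERK cells 5 were higher and 1 lower (19.9% of all genes called), or 2 in all without replicate 2, and in Parental cells edgeR called 0 (18.4% of all genes), with 3 at an unadjusted p under 0.05, 0 by DESeq2 and 1 called without replicate 3.

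The treatments were compared directly in Dmr-PERK cells, as the mean over 2 to 24 h. Dimerizer against thapsigargin gave 10 histone genes higher and 2 lower (47.1% of all genes called). The 2 lower with dimerizer were HIST1H2BN (-1.02 ± 0.07) and HIST4H4 (-0.98 ± 0.08). HIST1H1C (0.48 ± 0.05), HIST1H2BD (0.49 ± 0.09), HIST1H2AC (0.49 ± 0.07) and HIST1H2BK (0.25 ± 0.09) were higher with dimerizer. HIST2H2BE (-0.09 ± 0.08) and HIST2H2BC (0.01 ± 0.07) were not called. Dimerizer against arsenite gave 9 higher and 14 lower (80.4% of all genes called), and thapsigargin against arsenite 8 higher and 18 lower (80.8%). HIST1H2BK was lower with dimerizer (-1.61 ± 0.07) and with thapsigargin (-1.86 ± 0.07) than with arsenite, while the pair HIST2H4A and HIST2H4B, summed, was higher with dimerizer (0.96 ± 0.07) and HIST4H4 higher with thapsigargin (1.68 ± 0.09).

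The lines differed in the effect of thapsigargin on 6 of the 37 genes (25.7% of all genes called). HIST1H2AC (-0.56 ± 0.09), HIST1H2BD (-0.54 ± 0.12), HIST1H4H (-0.52 ± 0.11), HIST1H2AG (-0.47 ± 0.12) and HIST1H2BK (-0.34 ± 0.10) were more negative in Dmr-PERK cells, and HIST1H4J was more positive (0.37 ± 0.13). With arsenite the 8 genes whose effect differed were more positive in Dmr-PERK cells (42.2% of all genes called), among them HIST1H2BK (0.95 ± 0.08), HIST1H2AC (0.68 ± 0.13), HIST2H2BC (0.68 ± 0.13) and HIST1H4I (0.67 ± 0.08). With the pair HIST2H4A and HIST2H4B tested as 1 gene, its arsenite effect also differed (0.71 ± 0.13).

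**Figure D5:**
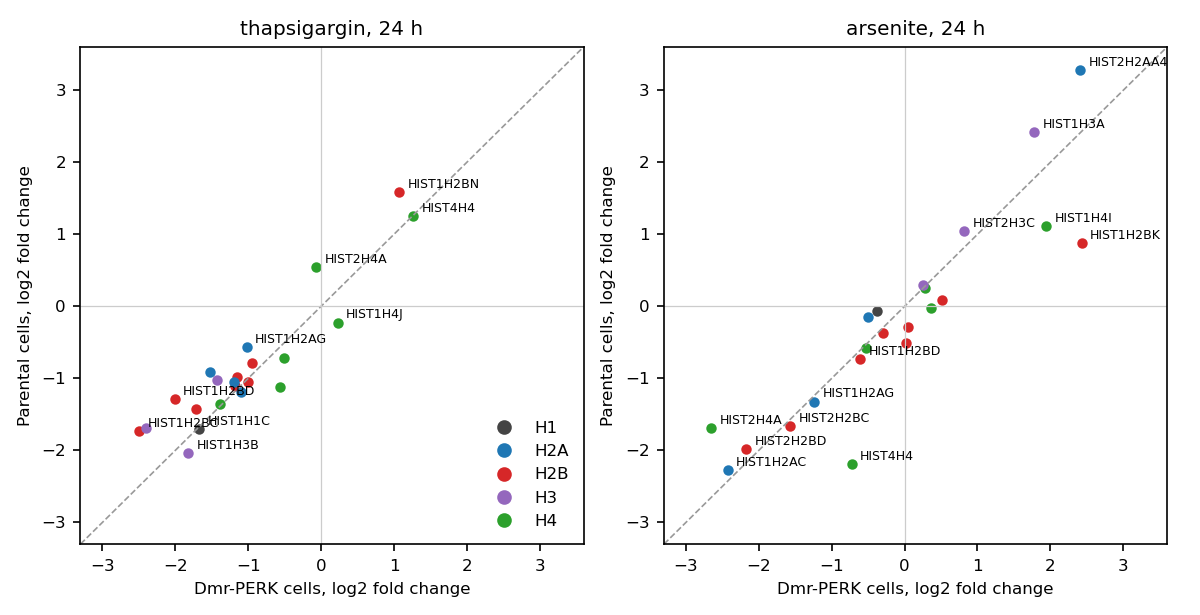
Log2 fold change at 24 h in Dmr-PERK cells (horizontal) against Parental cells (vertical) for thapsigargin and arsenite, each point a tested histone gene with a mean of at least 1 TPM, with equality dashed. With thapsigargin HIST1H2BN and HIST4H4 stand above 0 in both lines and HIST1H1C at -1.67 and -1.71. With arsenite HIST1H2BK is at 2.43 and 0.88. HIST2H4A is drawn without HIST2H4B, with which it shares its reads.

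Several H2A and H2B genes are transcribed away from each other from nearby starts, and partners did not always move alike. HIST1H2BC and HIST1H2AC, with annotated starts 219 bases apart, were both lower over time with dimerizer in Dmr-PERK cells (-0.66 and -0.53). With arsenite at 24 h HIST1H2AC was at -2.43 there and HIST1H2BC at 0.01 and not called. HIST1H2BJ and HIST1H2AG, 292 bases apart, were at 0.52 and -1.24, both called with edgeR, and HIST1H2BJ was at 0.31 and not called with limma on log2(TPM + 1) (adjusted p = 0.190). HIST1H2BK and HIST1H2AH, 331 bases apart, were both higher, at 2.43 and 1.27. HIST1H2AH reached the filter in arsenite libraries only, so it had to be high there to be tested.

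Genes that make histones outside the clusters, or that handle histone messages and proteins, were read from lists. Of 12 replication-independent variants, 8 fell with dimerizer in Dmr-PERK cells and 4 were not called (median -0.23, beside 55.2% of all genes called). With thapsigargin 9 fell in Dmr-PERK cells, and 8 fell and 2 rose in Parental cells. The medians were -0.43 and -0.48, beside 63% and 65.1% of all genes called. H2AFX, the variant phosphorylated at DNA breaks, was at -0.78 ± 0.02 with dimerizer and at -1.21 ± 0.02 and -1.37 ± 0.02 with thapsigargin in Dmr-PERK and Parental cells. H3F3A, which encodes a replacement H3, was at -0.75 ± 0.03, -1.37 ± 0.03 and -1.12 ± 0.03 in the same comparisons. With arsenite 9 fell and 1 rose in Dmr-PERK cells (83.6% of all genes called), and 10 fell and 1 rose in Parental cells (82.1%). Among those that fell were H1F0, a linker histone of resting cells (-3.75 ± 0.08 and -3.83 ± 0.08), and CENPA, the H3 of centromeres (-1.77 ± 0.03 and -2.32 ± 0.03).

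Of 26 factors of histone transcription, processing and decay, 13 rose and 8 fell with dimerizer in Dmr-PERK cells (median 0.06, beside 55.2% of all genes called). ERI1, an exonuclease that acts on the stem-loop, was at 0.46 ± 0.02, and ZNF473, a processing factor, at 0.69 ± 0.04. With thapsigargin 10 rose and 13 fell in Dmr-PERK cells (63% of all genes called) and 11 rose and 11 fell in Parental cells (65.1%). With arsenite 5 rose and 20 fell in Dmr-PERK cells (83.6% of all genes called) and 5 rose and 19 fell in Parental cells (82.1%). SLBP, the stem-loop binding protein, was at -0.07 with dimerizer and -0.47 and -0.40 with thapsigargin in Dmr-PERK and Parental cells, and at 1.25 ± 0.02 and 1.22 ± 0.02 with arsenite. NPAT (-1.43 and -1.19) and CASP8AP2 (-2.17 and -1.90), both needed for histone gene transcription, fell with arsenite. CCNE2, a cyclin whose kinase activates NPAT, was at -0.66 with dimerizer, -1.29 and -0.91 with thapsigargin and -1.75 and -1.89 with arsenite.

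Of 22 histone chaperones 13 fell and 7 rose with dimerizer in Dmr-PERK cells (55.2% of all genes called). With thapsigargin 16 fell and 5 rose there (63% of all genes called) and 14 fell and 6 rose in Parental cells (65.1%). With arsenite 20 fell and 2 rose in each line, beside 83.6% of all genes called in Dmr-PERK and 82.1% in Parental cells. NASP, which holds soluble H3 and H4, was at -0.24 ± 0.02 with dimerizer and at -0.51 ± 0.02 and -0.52 ± 0.02 with thapsigargin. HJURP, the chaperone of CENPA, was at -2.50 ± 0.03 and -2.62 ± 0.03 with arsenite. With dimerizer in Parental cells HJURP was the single gene of these 4 lists called, at 0.09 ± 0.02, beside 0.582% of all genes. Of 26 DNA replication genes, for which the same shares of all genes apply, 19 fell and 2 rose with dimerizer in Dmr-PERK cells (median -0.31). With thapsigargin 25 fell and 1 rose there (median -0.82), and 23 fell and 2 rose in Parental cells (median -0.68). With arsenite 25 fell and 1 rose in each line (medians -1.43 and -1.45). PCNA, the sliding clamp, was at -0.75 ± 0.03 with dimerizer and at -2.73 ± 0.03 and -2.17 ± 0.03 with arsenite. CDC6, a loader of the replicative helicase, was at 1.62 ± 0.02 and 2.01 ± 0.02 with thapsigargin. These lists moved in the same libraries as the histone genes, and their part in the histone results was not tested.

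The 12 genes too low to test were HIST2H2AB, HIST1H2AM, HIST1H2AB, HIST1H2AJ, HIST1H2BO, HIST1H2BL, HIST2H2BA, HIST1H2BG, HIST1H3D, HIST1H4A, HIST1H4D and HIST1H4C. They summed to 1944 estimated counts over the 120 libraries. HIST2H2BA, which shares 67.8% of its 31-base words with HIST2H2BF, had 26.8 counts in Dmr-PERK arsenite libraries against 2 in untreated ones, and 58.9 against 5.21 in Parental cells. HIST1H4D had 57 counts in untreated and 6 in arsenite libraries of Parental cells, and HIST1H4C had 51 in dimerizer and 18 in untreated libraries of Dmr-PERK cells. At these counts no test was made.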

How the data were processed

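Per the labels' protocols, total RNA from wells of 24-well plates was made into libraries with a directional kit and sequenced. The deposited tables hold estimated counts and TPM per gene for 120 libraries. Per the submitters' processing notes, FastQC 0.11.5, Salmon 0.9.1 and GRCh38 were used. Selection of polyadenylated RNA and the annotation release are not given in the sources used here. In the TPM the authors deposited, the lowest value is 0.063122 in place of 0.

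The estimated counts were rounded and tested with edgeR 4.0.16 (quasi-likelihood, TMM, filterByExpr with a minimum count of 10) in R 4.3.3, in 1 fit of 40 groups of 3 libraries. P-values were adjusted over 26998 genes by Benjamini-Hochberg, with 0.05 as the threshold, and the code was tested on simulated data. The members and the gene lists were chosen with earlier results of these data known. Named genes were the 3 highest of each family by mean TPM, the 3 highest and 3 lowest called genes of at least 1 CPM in each treatment and line, the 3 genes of smallest adjusted p in each other list, and a set panel. Others are said to be chosen after their values were seen. Alternatives were DESeq2 1.42.0, other size factors, no filter, limma 3.58.1 on log2 TPM, fits without replicates or with a replicate term, and, added after seeing the data, a fit without the third Parental arsenite library at 24 h and 1 with near-identical pairs summed.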

Additional observations from a re-analysis of the deposited data

Results flagged for a closer look

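Effects that differed between the lines are given as the log2 fold change in Dmr-PERK cells minus that in Parental cells over 4 to 24 h, each with an edgeR interaction test past an adjusted p of 0.05. For dimerizer 17 histone genes differed, beside 47% of all genes, and 14 of them are among the named genes given here. Among the linker, H2A and H3 genes the differences were -0.77 for HIST1H1C, -0.51 for HIST2H2AA4, -0.45 for HIST1H2AC, -0.37 for HIST2H2AC and -1.37 for HIST1H3A. HIST1H3A was scarce and reached the filter in no untreated or dimerizer library. Among H2B genes they were -1.42 for HIST1H2BD, -1.15 for HIST1H2BK, -1.08 for HIST2H2BD, -0.98 for HIST2H2BE, -0.69 for HIST2H2BC and -0.48 for HIST1H2BJ. Among H4 genes they were -0.99 for HIST1H4I and -0.34 for HIST1H4H, and 0.76 for HIST2H4A, or 0.35 for the sum of HIST2H4A and HIST2H4B, between which reads cannot be told apart.

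For thapsigargin 6 genes differed, beside 25.7% of all genes, with -0.56 for HIST1H2AC, -0.54 for HIST1H2BD, -0.52 for HIST1H4H, -0.34 for HIST1H2BK and 0.37 for HIST1H4J among them. For arsenite 8 genes differed, beside 42.2% of all genes. The differences were 0.95 for HIST1H2BK, 0.68 for HIST1H2AC, 0.68 for HIST2H2BC, 0.67 for HIST1H4I, 0.61 for HIST1H2BJ, 0.45 for HIST1H2BN, 0.41 for HIST2H2BE and 0.34 for HIST1H2BD.

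Effects that differed between the times from 4 to 24 h were found by an F-test in edgeR. In Dmr-PERK cells this held for 11 of the 37 histone genes with dimerizer, 15 with thapsigargin and 18 with arsenite, beside 42.1%, 52.2% and 71.2% of all genes. In Parental cells it held for 20 with thapsigargin and 23 with arsenite, beside 49.9% and 73.1% of all genes.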

How the results depend on the processing

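Over 345 named values, 4053 alternatives were computed. Of these 3751 kept their direction and their side of the threshold, 106 changed sign without passing the threshold in either fit, 132 lost the threshold, 58 gained it, and 6 changed sign with a call in at least 1 of the fits. HIST1H1C with arsenite at 24 h in Parental cells was -0.06 and became 0.17 both with DESeq2 and with its size factors in edgeR. HIST2H3C with arsenite over 4 to 24 h in Parental cells was 0.03 and became -0.18 and -0.27 with limma on log2(TPM + 1) and log2(TPM + 0.1). With HIST2H4A and HIST2H4B summed, HIST2H4A went from 0.06 to -0.52 with dimerizer at 24 h in Dmr-PERK cells and from 0.54 to -0.17 with thapsigargin at 24 h in Parental cells. The cause of the first 4 was not tested. Counts of called histone genes moved by over 1.5 times as follows. With limma the line difference of the arsenite effect went from 8 to 16 and 14, the genes called at 24 h against 0 h in untreated Parental cells from 16 to 10 (pseudocount 0.1), dimerizer at 2 h in Dmr-PERK cells from 6 to 3 and 2, arsenite at 2 h there from 6 to 3 with either pseudocount, thapsigargin at 2 h in Parental cells from 12 to 7 (0.1) and arsenite at 2 h in Parental cells from 0 to 1 (0.1). Without a filter dimerizer at 2 h in Dmr-PERK cells gave 3, and with only the lines and treatments compared dimerizer at 2 h in Parental cells gave 2 in place of 0. Against untreated 4 h wells in place of 0 h, the 2 h counts were 13 for dimerizer and 11 for arsenite in Dmr-PERK cells, and 7 and 8 in Parental cells. Leaving out 1 replicate number gave 4 to 6 for the change of the dimerizer effect with time, 1 to 6 for dimerizer and 2 to 4 for arsenite at 2 h in Dmr-PERK cells, and 0 to 1 for arsenite at 2 h in Parental cells.

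With a replicate block the counts were as in the fit without it for the averages over time (21 for dimerizer, 25 for thapsigargin and 23 for arsenite in Dmr-PERK cells), and no named value changed its call. Same-numbered samples had correlations of -0.0415 to 0.126 in their deviations (median 0.00182, 2 of 72 over 0.1), so the numbers do not pair the samples. Genes under about 0.448 CPM are limited by depth, and 12 of the 49 were not tested.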
